A study of Mus musculus with 15 samples.

Results

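Basement membranes are the thin protein sheets on which epithelial and endothelial cells rest, and the expression of 31 genes that code for their building blocks and close partners was followed in injured mouse kidney and lung. The 31 genes were picked by name from the 56748 genes of the deposited table, with earlier results of these data known. They are the 6 collagen IV chains, 10 laminin chains, both nidogens, the heparan sulfate proteoglycans perlecan and agrin, the associated collagens XV, XVIII and VII, nephronectin, both SMOC proteins, 3 proteins of the Fras and Frem family and both hemicentins. RNA was sequenced from kidney and lung of wild-type male C57Bl/6 mice, in 15 libraries that fall into 5 groups of 3. WTK mice received the vehicle of folic acid, and their label names no antibody. IgGK mice received a single intraperitoneal dose of folic acid (200 mg/kg), which injures the tubules of the kidney, and then control IgG, and LepK mice received the same folic acid and then LepAb, a human monoclonal antibody that neutralizes leptin. These mice were 10 to 12 weeks old, the antibodies were given every other day for 21 days, and the kidneys were taken on day 28. IgGL and LepL mice were 12 weeks old, received intratracheal bleomycin (1.5 units/kg), which injures the alveoli, and then control IgG or LepAb (10 mg/kg) every other day for 14 days, and the lungs were taken on day 14. A lung without bleomycin was not analysed here, so the lung values bear on the antibody and not on the injury.

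The collagen IV chains assemble as trimers. The chains of Col4a1 and Col4a2 form the network found in nearly every basement membrane, those of Col4a3, Col4a4 and Col4a5 form the network of the glomerular and alveolar basement membrane, and those of Col4a5 and Col4a6 join in the membranes of some epithelia and of smooth muscle. Laminins are trimers of an alpha, a beta and a gamma chain that bind cells through integrins and dystroglycan, and nidogens and perlecan tie the laminin sheet to the collagen IV sheet. In fibrosis these membranes can thicken, split or be rebuilt, and the epithelial cells, endothelial cells, pericytes and fibroblasts of a tissue all contribute transcripts, so that in whole tissue fewer cells of a type and less RNA per cell cannot be told apart.

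The collagen IV genes lie head to head in pairs, on opposite strands, and the pairs are shown because their partners did not always move together. In the deposited annotation (GRCm39 by the submitters' processing notes) Col4a1 (chr8:11248423-11362826, minus strand) and Col4a2 (chr8:11362805-11499287, plus strand) share 22 bases at their starts. Col4a4 (chr1:82426144-82564570, minus strand) and Col4a3 (chr1:82564642-82699780, plus strand) have 71 bases between them, and Col4a6 (chrX:139948399-140257072, minus strand) and Col4a5 (chrX:140258381-140472230, plus strand) have 1308. RefSeq windows of the mouse assembly GRCm38.p6, from 250 bases before a start to 50 after it, were given for 21 of the 31 genes. The first sequence shown is the stretch transcribed from both strands at the shared start of Col4a1 and Col4a2 (chr8:11312805-11312826 in GRCm38.p6, plus strand). It is followed by the 250 bases before the starts of Col4a5 (chrX:141475169-141475418, plus strand), Col4a6 (chrX:141474077-141474326, minus strand) and Col15a1 (chr4:47207762-47208011, plus strand), the last because its transcript had the largest change of the 31 in injured kidney. Capitals mark CCAAT boxes (CCAAT) and GC boxes (GGGCGG), read on both strands.
Col4a1 and Col4a2: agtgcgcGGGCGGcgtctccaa
Col4a5: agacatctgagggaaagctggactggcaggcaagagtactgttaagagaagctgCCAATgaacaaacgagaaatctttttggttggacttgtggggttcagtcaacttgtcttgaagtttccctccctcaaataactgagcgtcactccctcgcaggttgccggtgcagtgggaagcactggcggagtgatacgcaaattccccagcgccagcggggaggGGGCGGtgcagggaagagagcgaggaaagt
Col4a6: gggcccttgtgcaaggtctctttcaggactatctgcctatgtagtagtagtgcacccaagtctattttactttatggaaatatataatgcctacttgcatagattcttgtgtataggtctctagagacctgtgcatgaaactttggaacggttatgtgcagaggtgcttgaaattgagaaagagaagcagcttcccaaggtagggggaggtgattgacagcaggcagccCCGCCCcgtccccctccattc
Col15a1: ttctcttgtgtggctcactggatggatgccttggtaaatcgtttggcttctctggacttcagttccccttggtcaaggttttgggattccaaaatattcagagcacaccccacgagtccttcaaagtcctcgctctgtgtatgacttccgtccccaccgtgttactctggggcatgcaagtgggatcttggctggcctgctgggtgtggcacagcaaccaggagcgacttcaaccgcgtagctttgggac

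The shared start of Col4a1 and Col4a2 holds a GC box. The 250 bases before Col4a5 hold 1 CCAAT box and 1 GC box, those before Col4a6 hold 1 GC box, and those before Col15a1 hold neither. Over the whole 300-base windows, 10 of the 21 genes (47.6%) held CCAAT, against 41.1% of all 27025 genes with a window, and 13 (61.9%) held GGGCGG, against 38.2%. The AP-1 motif TGANTCA stood in 1 window (Hmcn2, 4.76% against 8.97%) and the STAT motif TTCNNNGAA, searched because the leptin receptor signals through STAT3, in 1 window (Lamb2, 4.76% against 9.55%). Both of these motifs read the same on either strand. A match describes the letters and not binding, and a missing match says only that these letters are not in the window.

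Total counts ran from 25913969 to 38924788 per library. The labels number 3 samples per group without saying that each is a separate animal, so p-values measure only the spread between these samples, and all 31 genes passed the filter on low counts in every fit. The tissue labels were borne out by defining markers: Umod, a transcript of the loop of Henle, was at 0 in every IgGL library, and Sftpc, a surfactant protein of the lung, was at 0 in every WTK and LepK library. The kidney group IgGK was not uniform. The summed FPKM of 4 markers of the adrenal cortex (Cyp11b1, Cyp11a1, Star and Hsd3b1) was 132 in IgGK replicate 1 and 166 in IgGK replicate 2, but 3.38 in IgGK replicate 3 and 1.07 to 1.52 in the 6 WTK and LepK libraries. FPKM, here counts per length of gene and per a constant of each library, is the scale on which all levels are given. That constant was 1.02 to 1.03 times the total count in WTK and 1.40 to 1.46 times in IgGK. It was 1.18 to 1.28 times in LepK and 1.43 to 1.46 times in lung, so levels compared between groups depend on it. Because of the adrenal transcripts, the counts of called genes among the 31 in comparisons with IgGK are also given without IgGK replicates 1 and 2. Levels, counts of groups without overlap and marker counts are not. The single IgGK library left is then assumed to vary like the other groups. In lung, the summed FPKM of 4 skeletal muscle markers was 80.4 to 288 in IgGL and 301 to 686 in LepL, and that of 5 alveolar type 2 markers was 3147 to 6351 in IgGL and 9477 to 13202 in LepL, with no overlap in either list.

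Most of these genes were higher in the kidney after folic acid. IgGK against WTK sets folic acid with control IgG against vehicle, and whether WTK mice also received an antibody is not stated in their label. In this comparison Col15a1, Smoc2, Frem1 and Hmcn1 rose most, followed by Col18a1, Col4a6, Col4a1 and Nid1. Hmcn2, Lama3, Smoc1, Lama1, Lamc3, Col4a3 and Col4a4 fell. Calls were made with edgeR's quasi-likelihood test, for genes whose log2 fold change passed 0.5 in either direction with an adjusted p under 0.05. Of the 31 genes 17 were called up and 7 down. Of all 19593 genes tested, 21.7% were called up and 15.6% down. The median log2 fold change was 0.77 over the 31 genes and 0.04 over all genes tested. Scaling by library totals instead of TMM factors moved the latter to 0.48 and gave 22 genes called up and 2 down, where 39.8% and 6.01% of all genes were called, so the direction of small changes is relative to the scaling. The share of a library's counts that fell on the 31 genes was 0.200% to 0.206% in WTK and 0.433% to 0.457% in IgGK, so these groups did not overlap. In normalized counts per library 21 genes were higher and 8 lower in every IgGK than in any WTK library, where 32.5% and 30.1% of all genes were. With IgGK replicates 1 and 2 left out, 17 genes were called up and 7 down. Lama4 lost its call and Lamb2 gained one, while over all genes 15.2% were then called up and 12.5% down.

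Part of the genes that had risen were lower with the antibody. In LepK against IgGK, Hmcn1, Smoc2, Col15a1, Frem1, Lama2, Nid1, Col4a1, Col7a1, Lama4 and Col4a2 fell, and Hmcn2 rose. These are 10 genes called down and 1 called up of 31, and of all genes tested 5.99% were called down and 4.38% up. The median log2 fold change was -0.32 over the 31 genes and -0.01 over all genes. The counts on the 31 genes made up 0.276% to 0.328% of the LepK libraries, above every WTK and below every IgGK library. All LepK libraries lay below all IgGK libraries for 19 genes and above them for 1, where 19.5% and 17.8% of all genes did so. Without IgGK replicates 1 and 2, all 11 called genes kept their direction and 6 their call (Hmcn1, Col15a1, Frem1, Nid1, Col4a1 and Hmcn2), while over all genes 1.11% were then called down and 2.02% up. Adjusted p-values of Lama2, Smoc2, Col4a2 and Col7a1 were then 0.0598, 0.0604, 0.0609 and 0.102 (edgeR), and that of Lama4 was 0.416.

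Treated kidneys remained apart from vehicle kidneys. In LepK against WTK, 13 of the 31 genes were called up and 4 down, where 15.2% and 7.3% of all genes were, and the median log2 fold change was 0.31 against 0.03. Every LepK library lay above every WTK library for 16 genes and below for 7, against 25.6% and 24.6% of all genes. Col15a1, Smoc2, Col4a6, Frem1 and Col18a1 were highest above WTK, and Lama3, Smoc1, Hmcn2 and Lama1 were called lower. LepK against IgGK, LepK against WTK and IgGK against WTK share libraries with one another, so their values are set side by side and not compared further.

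In bleomycin lung the genes called in the antibody comparison were all lower with LepAb. In LepL against IgGL, Col7a1, Smoc2, Lamb1, Col15a1, Lama2, Col18a1, Col4a2, Col4a1, Lamc3, Nid1, Lamc1 and Lama4 were called down and none up, where 2.36% and 1.78% of the 19617 genes tested were called. Without overlap of the groups, 14 genes were lower and 3 higher, against 17.3% and 16% of all genes. Of the 31 genes, 19 had an unadjusted p under 0.05, as had 5357 of all 19617. DESeq2 called 15 down and 4 up (Col4a6, Lama3, Fras1 and Frem2), where it called 5.65% and 6.33% of all genes. The median log2 fold change was -0.18 over the 31 genes and 0.00 over all genes. Of the 31 genes 14 had a log2 fold change above 0, with Frem2, Fras1, Col4a6 and Lama3 the highest. The 12 calls depend on single libraries. They were kept, with 14 genes then called down and 6 up, without IgGL replicate 1, where 7.84% and 9.48% of all genes were called, and they were lost without any 1 of the other 5 libraries, when between 0 and 22 of all genes were called. All 12 kept their direction in each of the 6 fits, and in the 5 that lost the calls their adjusted p-values were 0.0528 to 0.202 (edgeR).

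**Figure D1:**
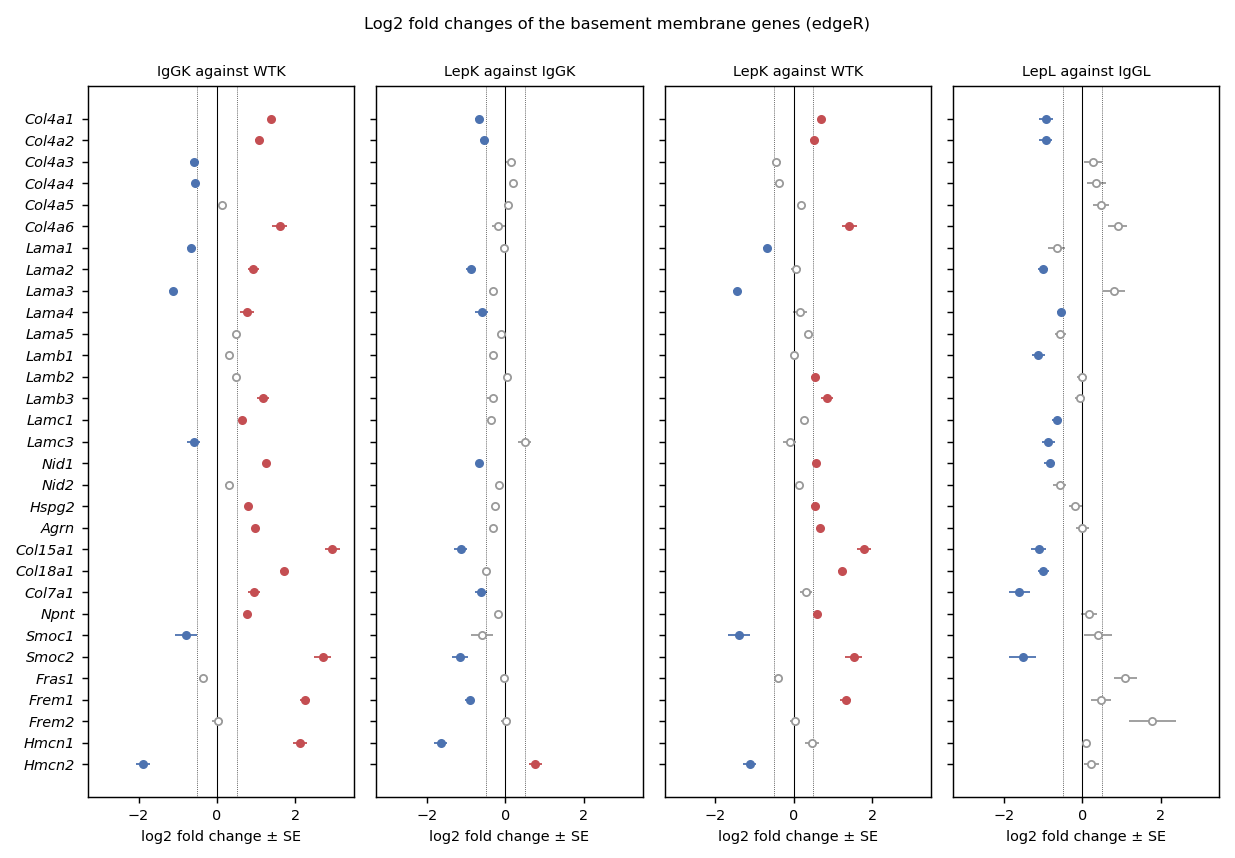
Log2 fold change of each of the 31 genes in 4 comparisons, with its standard error as a bar (3 libraries per group). Red points were called up and blue points down, open grey points were not called, and dotted lines stand at a log2 fold change of 0.5 in either direction. In IgGK against WTK 17 genes lie to the right and 7 to the left as called genes, and in LepL against IgGL all 12 called genes lie to the left.

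Collagen IV, the scaffold of every basement membrane, split into chains that rose and chains that fell in injured kidney. The FPKM of Col4a1 was 16.4, 18.0 and 17.3 in the WTK libraries, 44.3, 45.3 and 41.1 in IgGK and 24.2, 28.3 and 30.3 in LepK. That of Col4a2 was 16.1, 18.4 and 19.0 in WTK, 36.2, 37.7 and 34.9 in IgGK and 22.1, 26.1 and 27.3 in LepK. For both genes every LepK library lay between the WTK and the IgGK libraries. Col4a1 rose by a log2 fold change of 1.38 ± 0.09 (SE, edgeR adjusted p = 1.15e-07) in IgGK against WTK and fell by 0.68 ± 0.09 in LepK against IgGK (edgeR adjusted p = 0.000373). Col4a2 rose by 1.06 ± 0.09 (edgeR adjusted p = 8.47e-07) and fell by 0.55 ± 0.09 (edgeR adjusted p = 0.00127), a call that was lost without LepK replicate 1.

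Of the 3 chains of the glomerular network, Col4a3 and Col4a4 went the other way. The FPKM of Col4a3 was 16.7, 20.4 and 17.4 in WTK, 13.2, 10.6 and 11.6 in IgGK and 15.5, 11.3 and 13.0 in LepK, and that of Col4a4 was 23.1, 24.4 and 21.2 in WTK, 15.2, 14.6 and 15.5 in IgGK and 19.1, 15.8 and 17.6 in LepK. On the FPKM scale all WTK libraries lay above all IgGK libraries in both genes, and for Col4a4 the LepK libraries lay between the other groups. When libraries were scaled by their totals, the falls of Col4a3, Col4a4, Lama1, Lamc3 and Smoc1 kept their direction but were no longer called. With the main scaling Col4a3 fell by 0.59 ± 0.12 on the log2 scale (edgeR adjusted p = 0.000984) and Col4a4 by 0.56 ± 0.08 (edgeR adjusted p = 7.15e-05) in IgGK against WTK. Without WTK replicate 2 the change of Col4a3 was no longer called. Between LepK and IgGK their log2 fold changes were 0.14 and 0.19, which were not called. The markers of podocytes, the cells that make this network in the glomerulus, were counted beside them: 3 of 6 were called up in IgGK against WTK and none down, none was at 0, and their summed FPKM was 37.3 to 38.9 in WTK and 38.7 to 48.4 in IgGK. The part of podocyte number in the values of Col4a3 and Col4a4 was not tested.

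Col4a5, which belongs to the glomerular and to the epithelial network, did not pass the test with the main scaling. Its FPKM was 6.20, 5.27 and 6.14 in WTK, 6.70, 5.91 and 6.25 in IgGK and 7.26, 5.98 and 6.67 in LepK, and its log2 fold change in IgGK against WTK was 0.14 ± 0.09 (edgeR adjusted p = 0.221). With libraries scaled by their totals it was called up, at 0.57 (edgeR adjusted p = 6.73e-05). Its head-to-head neighbour Col4a6 was low, at 0.391, 0.336 and 0.529 FPKM in WTK, but 1.05, 1.29 and 1.37 in IgGK and 0.965, 1.12 and 1.26 in LepK. Col4a6 rose by 1.60 ± 0.19 in IgGK against WTK (edgeR adjusted p = 1.28e-05) and stood 1.42 ± 0.19 above WTK in LepK (edgeR adjusted p = 0.000109), while in LepK against IgGK it had a log2 fold change of -0.18 (edgeR adjusted p = 0.534).

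In the lung libraries the transcripts of the common network, Col4a1 and Col4a2, stood at far higher FPKM than in kidney. Organ, injury and day of sampling differ at once there and cannot be told apart. The FPKM of Col4a1 was 216, 258 and 261 in IgGL and 151, 143 and 103 in LepL, and that of Col4a2 was 190, 238 and 216 in IgGL and 129, 123 and 94.0 in LepL. All IgGL libraries lay above all LepL libraries for both genes, and Col4a1 and Col4a2 together took 45.6% to 53.4% of the counts on the 31 genes in IgGL, 34.3% to 39.4% in LepL and 11.8% to 18.7% in kidney. Col4a1 fell by 0.92 ± 0.18 (edgeR adjusted p = 0.0372) and Col4a2 by 0.93 ± 0.17 (edgeR adjusted p = 0.0337) in LepL against IgGL. The other chains were not called there. Col4a3 was at 18.7, 17.6 and 9.59 FPKM in IgGL and at 20.4, 21.1 and 14.99 in LepL, and Col4a4 and Col4a5 were likewise lowest in IgGL replicate 3, at 9.37 and 8.32 FPKM. Col4a6 was at 1.57, 0.847 and 0.807 FPKM in IgGL and 2.19, 2.04 and 1.91 in LepL, apart in every library, with a log2 fold change of 0.90 ± 0.24 that missed the threshold (edgeR adjusted p = 0.0614).

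A ratio taken within a library does not depend on how libraries are scaled. The FPKM of Col4a1 plus Col4a2, divided by that of Col4a3 plus Col4a4 plus Col4a5, was 0.706 to 0.812 in WTK, 2.27 to 2.67 in IgGK and 1.11 to 1.65 in LepK, so that the 3 groups did not overlap. In lung it was 7.28 to 17.5 in IgGL and 4.08 to 4.50 in LepL. These ratios describe the libraries and were not tested.

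**Figure D2:**
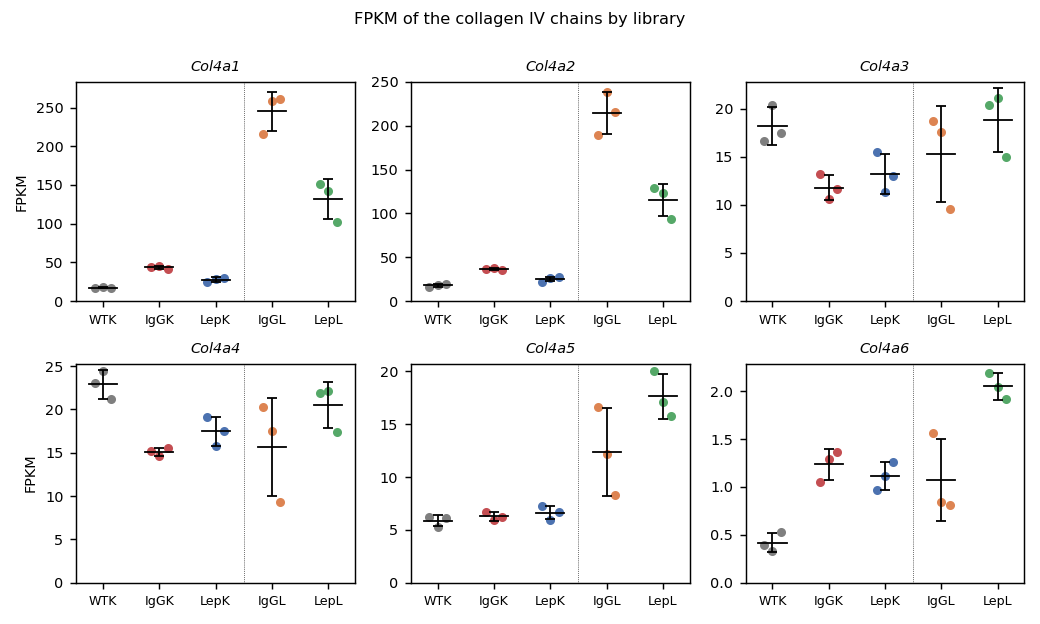
FPKM of the 6 collagen IV chains in each library (points), with the mean and SD of the 3 libraries of a group in black. The dotted line separates kidney groups from lung groups. Col4a1 and Col4a2 are highest in IgGK among the kidney groups and in IgGL among all 5 groups, Col4a3 and Col4a4 are lowest in IgGK among the kidney groups, and Col4a6 is lowest in WTK.

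The laminin alpha chains carry the sites that cells bind, and Lama2 and Lama4 were the ones called lower with LepAb in both organs. Lama2, the alpha chain of muscle and mesenchyme, was at 0.474, 0.513 and 0.412 FPKM in WTK, 0.830, 0.962 and 0.803 in IgGK and 0.426, 0.551 and 0.464 in LepK. Lama4, the alpha chain of vessels, was at 0.587, 0.368 and 0.619 in WTK, 0.895, 0.944 and 0.791 in IgGK and 0.626, 0.596 and 0.530 in LepK. For both genes all IgGK libraries lay above all others of kidney, and WTK and LepK overlapped. Lama2 rose by 0.93 ± 0.14 (edgeR adjusted p = 8e-05) and fell by 0.87 ± 0.13 (edgeR adjusted p = 0.00105), while Lama4 rose by 0.78 ± 0.18 (edgeR adjusted p = 0.00264) and fell by 0.61 ± 0.18 (edgeR adjusted p = 0.0289). The fall of Lama4 was called in 5 of 9 fits that each left out 1 library. In lung, Lama2 was at 3.06, 4.00 and 3.27 FPKM in IgGL and 1.73, 1.85 and 1.67 in LepL, and Lama4 at 5.25, 5.74 and 5.21 in IgGL and 3.43, 4.17 and 3.76 in LepL, without overlap. Lama2 fell by 1.01 ± 0.12 (edgeR adjusted p = 0.0327) and Lama4 by 0.55 ± 0.11 (edgeR adjusted p = 0.0365).

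The other alpha chains were not called in either antibody comparison. Lama3, the alpha chain of laminin-332 under epithelia, was at 3.97, 3.88 and 3.64 FPKM in WTK, 1.80, 1.53 and 1.81 in IgGK and 1.59, 1.30 and 1.30 in LepK. It fell by 1.13 ± 0.10 in IgGK against WTK (edgeR adjusted p = 1.11e-06) and by 1.44 ± 0.10 in LepK against WTK (edgeR adjusted p = 1.54e-06), so the antibody group lay no nearer to the vehicle group than IgGK did. In lung Lama3 was at 9.23, 6.03 and 3.60 FPKM in IgGL and 13.0, 10.9 and 9.86 in LepL, apart in every library but with a wide spread in IgGL, and its log2 fold change of 0.81 ± 0.28 was not called (edgeR adjusted p = 0.106). Lama1, an alpha chain of tubule membranes, was at 3.10 to 3.40 FPKM in WTK, 1.82 to 2.21 in IgGK and 1.76 to 2.28 in LepK, and fell by 0.65 ± 0.10 in IgGK against WTK (edgeR adjusted p = 0.000167). In lung it was at 1.64 to 2.58 FPKM in IgGL and 1.08 to 1.77 in LepL, with a log2 fold change of -0.65 ± 0.22 (edgeR adjusted p = 0.0984). Lama5, the most abundant alpha chain per length in every group, was at 17.3 to 19.1 FPKM in WTK, 23.6 to 25.6 in IgGK and 22.3 to 23.8 in LepK. In IgGK against WTK its log2 fold change of 0.48 had an adjusted p of 5.74e-05 (edgeR) but lay under the fold threshold. In lung Lama5 was at 23.1, 28.5 and 31.0 FPKM in IgGL and 18.7 to 19.8 in LepL, with a log2 fold change of -0.56 (edgeR adjusted p = 0.0532).

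Of the beta chains, Lamb1 was called in lung and Lamb2 in neither antibody comparison. Lamb1, the beta chain of many embryonic and adult laminins, was at 12.4, 14.7 and 14.2 FPKM in WTK, 16.1, 17.0 and 16.8 in IgGK and 13.4, 12.8 and 14.6 in LepK, and at 13.9, 19.3 and 20.6 in IgGL and 8.67, 9.03 and 7.60 in LepL. Lamb2, the beta chain of glomerulus and vessels, was at 10.6 to 11.8 FPKM in WTK, 14.2 to 16.2 in IgGK, 14.3 to 17.9 in LepK, with lung values of 21.1 to 29.0 in IgGL and 25.3 to 26.7 in LepL. Lamb1 fell by 1.12 ± 0.16 in LepL against IgGL (edgeR adjusted p = 0.0327), and in LepK against IgGK it had a log2 fold change of -0.32 ± 0.08, below the fold threshold (edgeR adjusted p = 0.0125). Lamb2 had log2 fold changes of 0.00 ± 0.12 in lung and 0.04 ± 0.09 in kidney. The ratio of Lamb1 to Lamb2 FPKM within a library was 1.12 to 1.39 in WTK, 1.05 to 1.14 in IgGK, 0.716 to 0.938 in LepK, with lung values of 0.478 to 0.980 in IgGL and 0.301 to 0.341 in LepL, lower in every library with LepAb than in any IgG library of the same organ. Lamb3, the beta chain of laminin-332, rose by 1.17 ± 0.15 in IgGK against WTK (edgeR adjusted p = 2.6e-05) from a low level of 0.736 to 1.07 FPKM to 1.76 to 2.08. Its position overlaps Hsd11b1 on the other strand over 42442 bases, and the libraries do not keep strand, so reads of the pair may not be told apart. The same holds for Nid2 where it overlaps Rtraf (437 bases) and for Col18a1 where it overlaps Slc19a1 (8825 bases). In lung Lamb3 was at 19.5 to 25.5 FPKM in IgGL and 20.3 to 25.4 in LepL.

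Of the gamma chains, Lamc1, a partner of most alpha and beta chains, was at 4.61 to 5.03 FPKM in WTK, 6.77 to 7.92 in IgGK, 5.40 to 6.02 in LepK, with lung values of 32.6 to 40.8 in IgGL and 22.0 to 26.7 in LepL. It rose by 0.63 ± 0.08 in IgGK against WTK (edgeR adjusted p = 1.79e-05) and fell by 0.65 ± 0.14 in LepL against IgGL (edgeR adjusted p = 0.0401), while the value of -0.37 ± 0.08 in LepK against IgGK lay under the fold threshold (edgeR adjusted p = 0.00472). Lamc3 went in opposite directions in the organs. Its FPKM was 1.69, 1.97 and 1.90 in WTK, 1.54, 1.07 and 0.983 in IgGK and 1.75, 1.92 and 1.46 in LepK, with lung values of 2.03, 1.89 and 1.56 in IgGL and 1.02, 1.11 and 0.963 in LepL. IgGK and LepK overlapped, and IgGL and LepL did not. Lamc3 fell by 0.60 ± 0.17 in IgGK against WTK (edgeR adjusted p = 0.00994), a call lost without IgGK replicate 3, and by 0.86 ± 0.16 in LepL against IgGL (edgeR adjusted p = 0.0344). Between LepK and IgGK its log2 fold change was 0.49 ± 0.17 (edgeR adjusted p = 0.0581).

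The linkers between the laminin and collagen IV sheets were led by Nid1. The FPKM of Nid1 was 4.15, 4.17 and 4.62 in WTK, 10.2, 9.36 and 10.2 in IgGK, 5.95, 6.36 and 6.66 in LepK, with lung values of 28.5, 34.3 and 35.2 in IgGL and 20.7, 19.2 and 16.6 in LepL, with no overlap between the groups of an organ. Nid1 rose by 1.24 ± 0.07 in IgGK against WTK (edgeR adjusted p = 7e-08), fell by 0.68 ± 0.07 in LepK against IgGK (edgeR adjusted p = 0.000149) and fell by 0.83 ± 0.13 in LepL against IgGL (edgeR adjusted p = 0.0327). Its paralog Nid2 was at 2.81 to 3.34 FPKM in WTK, 3.41 to 3.75 in IgGK, 3.16 to 3.45 in LepK, with lung values of 1.90 to 2.61 in IgGL and 1.36 to 1.62 in LepL, and was called in none of the comparisons, with log2 fold changes of 0.30, -0.16 and -0.57 in the order just given. The ratio of Nid1 to Nid2 FPKM was 1.25 to 1.64 in WTK, 2.71 to 2.84 in IgGK, 1.84 to 2.08 in LepK, with lung values of 13.1 to 16.8 in IgGL and 10.6 to 15.2 in LepL, apart between the 3 kidney groups and overlapping between the lung groups.

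Both large heparan sulfate proteoglycans rose with injury. Hspg2, which codes for perlecan, was at 5.75 to 6.79 FPKM in WTK, 9.53 to 11.3 in IgGK and 8.08 to 9.39 in LepK, and Agrn, which codes for agrin, at 21.1 to 23.8 in WTK, 42.3 to 44.0 in IgGK and 32.4 to 37.6 in LepK. Neither gene's kidney groups overlapped. Hspg2 rose by 0.80 ± 0.09 (edgeR adjusted p = 7.66e-06) and Agrn by 0.97 ± 0.08 (edgeR adjusted p = 4.61e-07) in IgGK against WTK. Between LepK and IgGK the differences were -0.27 ± 0.09 (edgeR adjusted p = 0.049) and -0.31 ± 0.07 (edgeR adjusted p = 0.0107), both under the fold threshold, and in LepL against IgGL they were -0.18 ± 0.16 and 0.01 ± 0.16. The ratio of Hspg2 to Agrn FPKM was 0.221 to 0.297 in the kidney libraries, where the groups overlapped. In lung it was 0.535 to 0.545 in IgGL and 0.449 to 0.490 in LepL, without overlap.

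The multiplexins, collagens that carry heparan or chondroitin sulfate chains and release endostatin-like fragments, had some of the largest changes. Col15a1 was at 2.16, 2.42 and 3.23 FPKM in WTK, 19.8, 20.7 and 17.9 in IgGK and 6.42, 11.5 and 8.88 in LepK. Col18a1 was at 16.1, 17.0 and 17.2 in WTK, 52.5, 56.2 and 51.7 in IgGK and 33.2, 41.9 and 41.2 in LepK. In both genes the LepK libraries lay between the other 2 groups without overlap. Col15a1 rose by 2.94 ± 0.19 (edgeR adjusted p = 1.61e-07), the largest change of the 31 genes, and fell by 1.15 ± 0.18 in LepK against IgGK (edgeR adjusted p = 0.0011). Col18a1 rose by 1.71 ± 0.09 (edgeR adjusted p = 4.03e-08), and in LepK against IgGK its log2 fold change of -0.49 ± 0.09 lay just under the fold threshold (edgeR adjusted p = 0.00237). In lung Col15a1 was at 7.10, 8.76 and 9.92 FPKM in IgGL and 4.67, 4.54 and 3.01 in LepL, and Col18a1 at 12.4, 12.9 and 15.9 in IgGL and 7.96, 7.47 and 5.82 in LepL. These groups did not overlap either, and Col15a1 fell by 1.11 ± 0.19 and Col18a1 by 0.99 ± 0.15 (edgeR adjusted p = 0.0327 for each). The ratio of Col18a1 to Col15a1 FPKM was 5.34 to 7.48 in WTK, 2.65 to 2.89 in IgGK and 3.63 to 5.17 in LepK, all apart, while IgGL (1.48 to 1.74) and LepL (1.65 to 1.93) overlapped.

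Col7a1, the collagen of the anchoring fibrils that hold epithelia to the stroma, was low in kidney, at 0.679, 0.972 and 0.811 FPKM in WTK, 1.40, 1.60 and 1.60 in IgGK and 0.903, 1.19 and 0.942 in LepK. It rose by 0.94 ± 0.15 in IgGK against WTK (edgeR adjusted p = 0.000143) and fell by 0.62 ± 0.14 in LepK against IgGK (edgeR adjusted p = 0.00959). In lung it was at 3.83, 5.90 and 8.36 FPKM in IgGL and 2.34, 2.11 and 1.65 in LepL, apart in every library, and its fall of 1.61 ± 0.27 was the largest of the 31 genes in that comparison (edgeR adjusted p = 0.0327).

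Npnt codes for nephronectin, a ligand of integrin alpha 8 beta 1 that is needed for kidney development. It was at 16.2 to 18.6 FPKM in WTK, 27.7 to 29.5 in IgGK, 24.6 to 27.0 in LepK, with lung values of 42.8 to 76.7 in IgGL and 61.0 to 77.9 in LepL, and of the antibody comparisons neither was called. It rose by 0.77 ± 0.07 in IgGK against WTK (edgeR adjusted p = 1.5e-06). The SMOC proteins, calcium-binding relatives of SPARC, moved apart in injured kidney. Smoc2 was at 2.43, 1.45 and 2.95 FPKM in WTK, 15.5, 14.4 and 13.4 in IgGK and 5.21, 8.20 and 6.15 in LepK, without overlap. It rose by 2.70 ± 0.22 (edgeR adjusted p = 6.13e-07) and fell by 1.17 ± 0.20 in LepK against IgGK (edgeR adjusted p = 0.00189). Smoc1 was at 3.61, 4.12 and 3.57 FPKM in WTK, 2.55, 2.63 and 1.15 in IgGK and 1.87, 1.45 and 0.933 in LepK, so that WTK was apart from both injured groups. Smoc1 fell by 0.80 ± 0.28 in IgGK against WTK (edgeR adjusted p = 0.0293), a call kept in 5 of 9 fits that each left out 1 library. The IgGK libraries with adrenal transcripts were those with the higher Smoc1 values, and without them the log2 fold change was -1.67 ± 0.32 (edgeR adjusted p = 0.00196) in IgGK against WTK and 0.28 in place of -0.59 in LepK against IgGK, neither of the latter called. The part of adrenal RNA in these values was not tested.

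In lung Smoc2 was at 2.85, 7.97 and 7.65 FPKM in IgGL and 1.73, 2.17 and 2.70 in LepL. IgGL replicate 1 lay close to the LepL libraries, and the fall of 1.52 ± 0.36 had an adjusted p of 0.0495 (edgeR). Smoc1 was low in lung, at 0.244 to 0.526 FPKM in IgGL and 0.414 to 0.687 in LepL, with overlap.

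Fras1, Frem1 and Frem2 form a complex under embryonic and adult epithelia, and in kidney only Frem1 was called among them. Frem1, which fibroblasts of the mesenchyme make, was at 0.311, 0.428 and 0.381 FPKM in WTK, 1.90, 1.59 and 1.66 in IgGK and 0.820, 0.9998 and 0.959 in LepK, without overlap. Frem1 rose by 2.24 ± 0.13 (edgeR adjusted p = 7.05e-08) and fell by 0.91 ± 0.12 in LepK against IgGK (edgeR adjusted p = 0.000511). Fras1 was at 3.22 to 3.32 FPKM in WTK, 2.06 to 2.74 in IgGK and 2.35 to 2.53 in LepK, and in IgGK against WTK a log2 fold change of -0.36 that lay under the fold threshold (edgeR adjusted p = 0.00536), and Frem2 was at 0.848 to 1.16 FPKM across all 9 kidney libraries. In lung Fras1 was at 0.901, 0.919 and 0.377 FPKM in IgGL and 1.62, 1.75 and 1.44 in LepL, apart in every library, with a log2 fold change of 1.10 ± 0.28 (edgeR adjusted p = 0.0589). Frem1 was at 1.06, 0.633 and 0.459 in IgGL and 1.14, 1.002 and 0.930 in LepL, with overlap, and Frem2 did not pass 0.197 FPKM. Their log2 fold changes were 0.48 ± 0.26 and 1.79 ± 0.61 and were not called (edgeR adjusted p = 0.273 and 0.106). Without IgGL replicate 1 all 3 genes were called up in lung, with 1.26 for Fras1, 0.86 for Frem1 and 2.39 for Frem2.

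The hemicentins, very large immunoglobulin-domain proteins that link neighbouring basement membranes, showed opposite changes in injured kidney. Hmcn1 was at 0.0905, 0.0971 and 0.121 FPKM in WTK, 0.439, 0.416 and 0.455 in IgGK and 0.125, 0.144 and 0.155 in LepK. It rose by 2.12 ± 0.18 (edgeR adjusted p = 7.92e-07) and fell by 1.65 ± 0.17 in LepK against IgGK, the largest fall of the 31 genes there (edgeR adjusted p = 0.000137). LepK lay just above WTK in every library, with a log2 fold change of 0.47 that was not called (edgeR adjusted p = 0.0553). Hmcn2 was at 1.54, 1.50 and 1.46 FPKM in WTK, 0.521, 0.295 and 0.373 in IgGK and 0.784, 0.622 and 0.633 in LepK. It fell by 1.89 ± 0.17 in IgGK against WTK (edgeR adjusted p = 1.44e-06) and rose by 0.76 ± 0.17 in LepK against IgGK (edgeR adjusted p = 0.00813), so that the LepK libraries lay between the other groups. In lung neither was called. Hmcn1 was at 3.31, 3.63 and 3.10 FPKM in IgGL and 3.77, 3.78 and 3.47 in LepL, and Hmcn2 at 0.282 to 0.345 in IgGL and 0.347 to 0.444 in LepL.

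**Figure D3:**
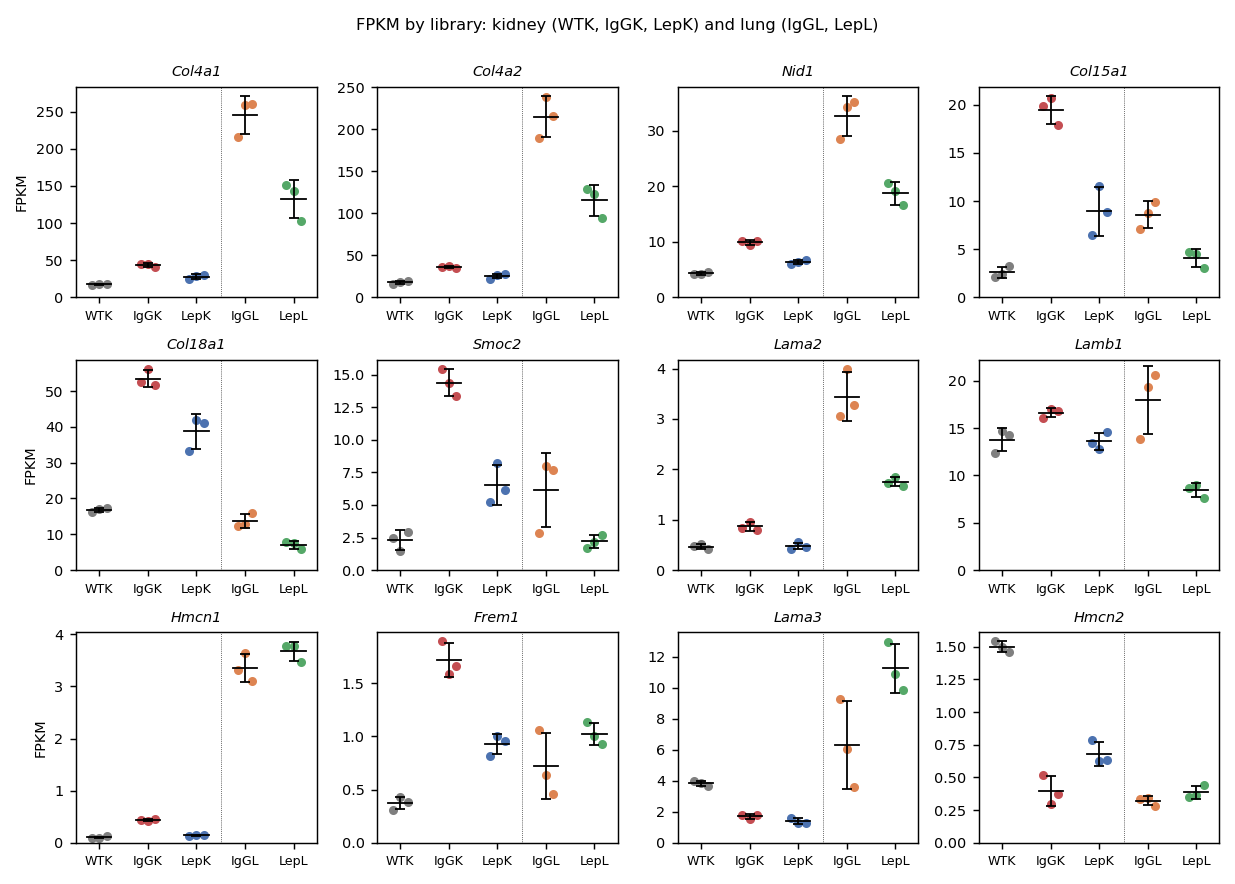
FPKM of 12 of the 31 genes in each library (points), with the mean and SD of the 3 libraries of a group in black. The dotted line separates kidney groups from lung groups. Col15a1, Smoc2, Hmcn1 and Frem1 are highest in IgGK among the kidney groups, Hmcn2 and Lama3 are highest in WTK, and Lamb1 and Lama2 are lower in LepL than in IgGL, while Hmcn1 is not.

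The kidney and lung comparisons of LepAb with IgG share no library. Of the 10 genes called down in kidney 8 (80.0%) were also called down in lung, and these are 66.7% of the 12 called there: Col4a1, Col4a2, Lama2, Lama4, Nid1, Col15a1, Col7a1 and Smoc2. Over all genes, 145 were called down in both organs, 12.4% of those called down in kidney and 31.3% of those in lung. The overlap rests on the full lung fit, since all 12 lung calls were lost when any library but IgGL replicate 1 was left out. Without IgGK replicates 1 and 2, 3 of the 5 genes still called down in kidney (Col4a1, Nid1 and Col15a1) were called down in lung, against 42 of 235 over all genes (17.9%). In the full fits Hmcn1 and Frem1 were called down in kidney alone, and Lamb1, Lamc1, Lamc3 and Col18a1 in lung alone. Whether the antibody comparison differed between the organs was tested as an interaction over all 12 injured libraries with edgeR, and calls were made on the adjusted p alone, under 0.05. It differed for 4 of the 31 genes, 2 in each direction, and over all 21488 genes tested 3.51% were called with a higher and 3.62% with a lower value in kidney. Hmcn1 had a kidney minus lung difference of -1.72 ± 0.14 (edgeR adjusted p = 0.000114) and Frem1 of -1.37 ± 0.31 (edgeR adjusted p = 0.0244), both called lower in kidney and not called in lung. Lamc3 had a difference of 1.38 ± 0.26 (edgeR adjusted p = 0.0143) and Lamb1 of 0.84 ± 0.19 (edgeR adjusted p = 0.0244), both called lower in lung and not called in kidney. For Lamc1 and Col18a1, called in lung alone, the difference was not called (0.30, edgeR adjusted p = 0.262, and 0.53, edgeR adjusted p = 0.105). The difference of Hmcn1 and Lamc3 was called in 12 of 12 fits that each left out 1 library, that of Frem1 in 7 and that of Lamb1 in 5. Without IgGK replicates 1 and 2, Hmcn1 alone was called, and over all genes 0.0083% in each direction.

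**Figure D4:**
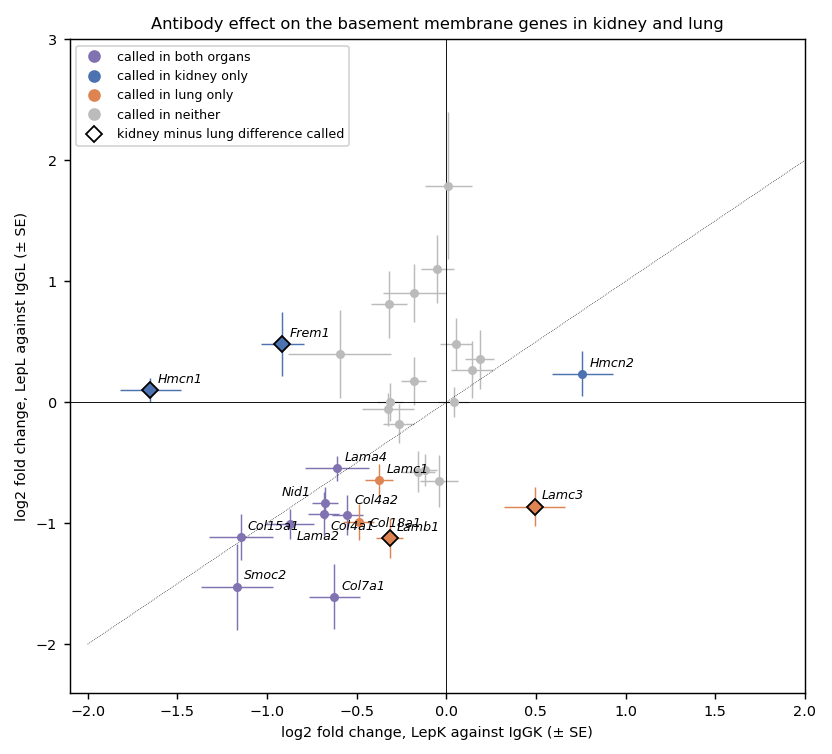
Log2 fold change of each of the 31 genes in LepL against IgGL (vertical axis) and in LepK against IgGK (horizontal axis), with standard errors as bars and the line of equal values dotted. Purple points were called in both organs, blue in kidney only, orange in lung only and grey in neither, and diamonds mark the 4 genes whose kidney minus lung difference was called. The 8 purple points lie below 0 on both axes, and Hmcn1 and Frem1 lie below 0 in kidney only.

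Levels also differed between the organs with IgG alone, a contrast of injury, organ and time together that is given as a description. On the FPKM scale 15 of the 31 genes were higher in every IgGL than in any IgGK library, 9 were lower and 7 overlapped. The shares over all genes were not computed for this contrast, so these counts are not read as a trait of the 31 genes. Lamb3 (12.5 times), Hmcn1 (7.67 times), Lama4 (6.16 times), Col4a2 (5.92 times) and Col4a1 (5.62 times) stood furthest above kidney by the ratio of means, and Frem2 (28.6 times), Smoc1 (5.34 times), Col18a1 (3.90 times) and Fras1 (3.39 times) furthest below. In WTK the highest means were those of Col4a4 (22.9 ± 1.64 FPKM, SD, n = 3) and Agrn (22.6 ± 1.38), which overlapped, and next came Col4a3, Lama5, Col4a2, Npnt, Col4a1 and Col18a1 from 18.2 to 16.8, each overlapping its neighbour in the order. In IgGL Col4a1 (245 ± 25.5) and Col4a2 (215 ± 24.4) overlapped each other and stood apart from Npnt (60.5 ± 17.0), which stood apart from Lamc1 (37.7 ± 4.45). Members at 10 FPKM or more numbered 10 in WTK, 13 in IgGK, 10 in LepK, and in lung 15 in IgGL and 14 in LepL.

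**Figure D5:**
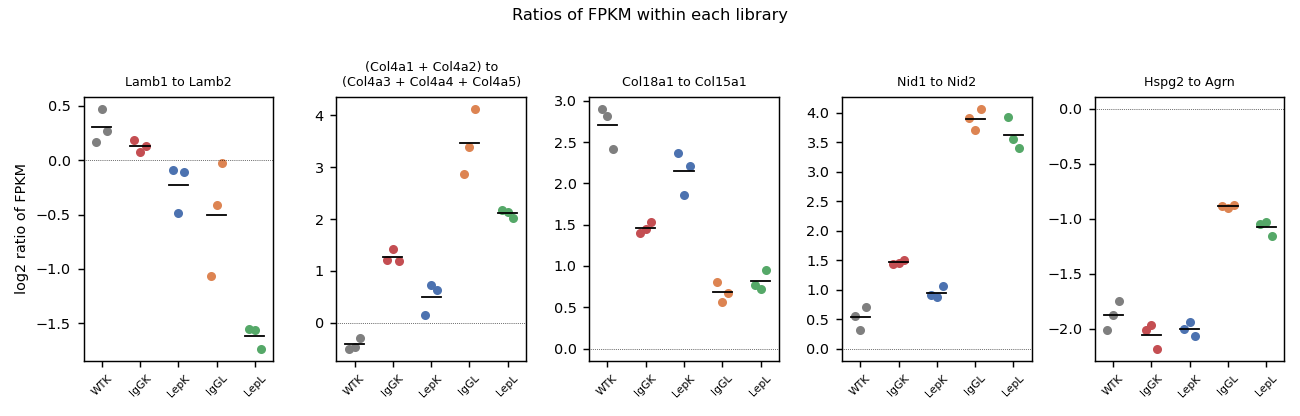
Log2 ratio of FPKM between pairs or sets of genes within each library (points), with the mean of a group as a line and a ratio of 1 as a dotted line. The ratio of Col4a1 plus Col4a2 to Col4a3 plus Col4a4 plus Col4a5 separates WTK, LepK and IgGK, and that of Lamb1 to Lamb2 is lowest in LepL.

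Several lists of cell type markers changed in the same comparisons, not all in the direction of these genes, and their part in the results was not tested. In IgGK against WTK 6 of 6 fibroblast markers and 6 of 6 macrophage markers were called up and 6 of 6 proximal tubule markers down. The summed FPKM of the fibroblast markers was 14.6 to 20.4 in WTK, 74.3 to 87.6 in IgGK and 35.8 to 53.1 in LepK, with lung values of 328 to 362 with IgG and 153 to 201 with LepAb. That of the macrophage markers was 35.1 to 40.6, 207 to 269 and 93.8 to 127 in the kidney groups in the same order, and 367 to 456 and 211 to 309 in lung. None of these ranges overlapped between groups of an organ, and none of the markers was at 0 in all libraries of a group. The sums do not mean that every marker fell with LepAb. In LepK against IgGK 5 of 6 fibroblast and 5 of 6 macrophage markers were called down, against 5.99% of all genes. In LepL against IgGL only 3 of 6 and 2 of 6 were, against 2.36% of all genes, and none was called up in either. The summed FPKM of the proximal tubule markers was 2171 to 2316 in WTK, 471 to 626 in IgGK and 887 to 1162 in LepK. Of 5 injured tubule markers, 5 were called up in IgGK against WTK and 5 down in LepK against IgGK. Their sum was 1.99 to 3.22 in WTK, 122 to 127 in IgGK and 51.3 to 68.3 in LepK. Of 6 markers of the distal nephron and collecting duct, 1 was called down in IgGK against WTK and 3 up in LepK against IgGK. The endothelial markers, whose cells make Col4a1, Col4a2 and Lama4, went another way: their sum was 41.9 to 49.2 in WTK, 35.2 to 40.1 in IgGK and 41.9 to 48.5 in LepK, with lung values of 232 to 283 in IgGL and 231 to 277 in LepL. Alveolar type 1 markers, from cells that make Col4a3, Col4a4 and Lama3, summed to 741 to 1001 FPKM in IgGL and 1125 to 1255 in LepL, lowest in IgGL replicate 3. The smooth muscle markers summed to 152 to 194 in IgGL and 106 to 148 in LepL, but only 1 of 5 was called down and none up. Their median log2 fold change was -0.21.

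Genes that act on basement membranes were counted from 4 lists. Their counts stand against 21.7% of all genes called up and 15.6% down for injury in kidney (IgGK against WTK), 4.38% and 5.99% for the antibody there, and 1.78% and 2.36% in LepL against IgGL. Of 12 receptors, 8 were called up in IgGK against WTK and none down, led by Itga2 (2.86 ± 0.31), a collagen receptor subunit, Itgb4 (1.56 ± 0.13), the laminin receptor subunit of hemidesmosomes, and Sdc1 (1.50 ± 0.11), a syndecan. In LepK against IgGK only Itga6, a laminin receptor subunit, was called, with a fall of 0.59 ± 0.09 (edgeR adjusted p = 0.00131), and in lung none was, while without IgGL replicate 1 there was 1. Of 10 genes for assembly and crosslinking, 5 were called up in IgGK against WTK, led by Loxl2 (2.37 ± 0.16), which crosslinks collagen IV, Sparc (2.02 ± 0.15), which binds it, and Serpinh1 (1.58 ± 0.10), its chaperone. P4hb, a subunit of prolyl hydroxylase, was called down. With LepAb in kidney (LepK against IgGK) Loxl2 and Sparc fell by 0.91 each, Pxdn, a peroxidase that forms sulfilimine bonds in collagen IV, by 0.73 and Serpinh1 by 0.68, and none rose. In lung Loxl2 fell by 1.04 ± 0.19 and Plod1, a lysyl hydroxylase, by 0.79 ± 0.13 (edgeR adjusted p = 0.0344 and 0.0327).

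Of 9 proteases and inhibitors, 8 were called up in IgGK against WTK and 1 down. Mmp7, matrilysin, rose by 8.75 ± 0.46, Timp1, an inhibitor of metalloproteinases, by 5.13 ± 0.30 and Mmp14, a membrane-bound metalloproteinase, by 3.69 ± 0.17, whereas Timp3, the inhibitor held in the matrix, fell by 1.70 ± 0.12. Mmp7 had only 0 to 2 counts per WTK library, so the size of its rise is uncertain. With LepAb in kidney 5 were called down and none up, led by Mmp7 (-1.78 ± 0.25), Mmp2 (-1.43 ± 0.20), a type IV collagenase, and Timp1 (-1.32 ± 0.23). In lung 4 of 8 tested were called down and none up, with Timp1 at -2.33 ± 0.47 (edgeR adjusted p = 0.0387), Mmp3 at -0.996 ± 0.16 and Mmp14 at -0.87 ± 0.17. Of 11 other basement membrane proteins tested in kidney, 4 were called up in IgGK against WTK (Col17a1, the hemidesmosomal collagen, at 4.97 ± 0.53, Fbln1 at 2.40 ± 0.16 and Egflam at 1.15 ± 0.15 led) and 3 down (Vwa1 at -1.96 ± 0.18, Tinag at -1.001 ± 0.11 and Ntn1 at -0.89 ± 0.11). Col17a1 had only 2 to 8 counts per WTK library, so the size of its rise is likewise uncertain. With LepAb in kidney Fbln2, a fibulin, fell by 1.02 ± 0.16 and Egflam by 0.58 ± 0.14, and Vwa1 rose by 0.75 ± 0.18. In lung Fbln2 fell by 1.91 ± 0.33 and Tinagl1 by 1.05 ± 0.21 (edgeR adjusted p = 0.0327 and 0.0387). Like the calls among the 31 genes, those of these lists in lung were lost without some single libraries: the protease list kept between 0 and 6 calls. Without IgGK replicates 1 and 2, LepK against IgGK kept 1 call among the receptors, 2 in assembly, 4 among the proteases and none among the other proteins.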

How the data were processed

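Whole kidney or lung RNA was extracted with the RNeasy kit and sequenced from poly(A), non-directional libraries, so overlapping genes on opposite strands cannot be told apart. The authors deposited 1 table with raw read counts per gene and FPKM values per gene for every library, on GRCm39 (mm39) by the submitters' processing notes. The aligner and counter are not given in the sources used here. The FPKM values deposited by the authors equal counts divided by gene length and by a constant for each library that is not its total count. They were used only to describe levels and ratios. Columns with the authors' own comparisons (group means, fold changes, p and adjusted p) were not used. Groups came from the sample titles. A description line that names table columns differently from the titles was not used. Genes were kept by filterByExpr (minimum count 10, minimum total count 15), scaled by TMM and tested with edgeR 4.0.16 (glmQLFit, glmQLFTest; R 4.3.3, limma 3.58.1), with Benjamini-Hochberg adjustment over all genes tested. The 9 kidney libraries shared 1 fit, the 6 lung libraries another, and the 12 libraries of injured organs 1 fit with an interaction term. Total counts of 25913969 to 38924788 per library set the counting error, which replicates exceeded. DESeq2 1.42.0, other scalings, filters and thresholds, a replicate block and leaving out libraries were alternatives. The fits were tested on simulated data. Every one of the 31 genes was named with its level. Values per library and full statistics were given for up to 8 called genes with the largest change in each comparison and for both partners of 6 pairs (the collagen IV pairs, Lamb1 and Lamb2, the nidogens and the SMOC genes) where either was called, and for some others after their values were seen. From each of the 4 accompanying lists up to 3 called genes in each direction were named by size, and Serpinh1 in LepK against IgGK after its value was seen. The 31 genes and all lists were chosen with earlier results of these data known.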

Additional observations from a re-analysis of the deposited data

Results flagged for a closer look

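Genes are given here when the difference between the antibody comparison in kidney (LepK against IgGK) and that in lung (LepL against IgGL) itself passed edgeR's interaction test, at an adjusted p under 0.05. For Hmcn1 the difference was -1.72 on the log2 scale, from -1.65 in kidney and 0.10 in lung. For Frem1 it was -1.37, from -0.91 in kidney and 0.48 in lung. For Lamc3 the difference was 1.38, from 0.49 in kidney and -0.86 in lung, and for Lamb1 it was 0.84, from -0.32 in kidney and -1.12 in lung. The organs also differ in the injury, its dose and the time of sampling, which cannot be told apart from the organ. With 3 libraries per group, no group was tested for an outlying value.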

How the results depend on the processing

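Counts are given as genes of the 31 called up and down. In IgGK against WTK, main 17 and 7, library totals gave 22 and 2, a log2 threshold of 1 gave 10 and 2, and edgeR's glmTreat 15 and 2. Over all genes these alternatives called 39.8% and 6.01%, 15.6% and 6.31%, and 16.4% and 10.3%. Leaving out 1 library gave 17 to 19 and 5 to 7. In LepK against IgGK, main 1 and 10, no fold threshold gave 16 down, and both the threshold of 1 and glmTreat gave 0 and 3. Over all genes no fold threshold called 9.57% down, the threshold of 1 called 0.893% and 2.18%, and glmTreat 0.485% and 0.699%. Leaving out 1 library gave 1 to 2 and 8 to 12. Leaving out both IgGK libraries with adrenal transcripts, an alternative chosen after seeing the data, gave 5 down. In LepK against WTK, main 13 and 4, no fold threshold gave 7 down, the threshold of 1 gave 5 up and glmTreat 6 up. Of all genes 18.6%, 9.39% and 8.39% were called in these directions, in that order. Leaving out 1 library gave 10 to 14 and 4 to 5. In LepL against IgGL, main 0 and 12, DESeq2 and no filter on low counts each gave 4 up, the threshold of 1 gave 5 down, and glmTreat gave 0 down. DESeq2 called 6.33% of all genes up, no filter called 4.32% up, and the threshold of 1 called 1.17% down. With glmTreat 0 of all 19617 genes were called. Leaving out 1 library gave 0 to 6 and 0 to 14. The lung fit holds only its 2 groups, so the fit of 2 groups was not repeated. For kidney minus lung, main 2 and 2, library totals gave 1 and 5, DESeq2 and no filter each 4 and 6, and a mean of at least 1 CPM 4 down. Shares of all genes called were 1.16% and 9.16% with library totals and 6.88% and 6.98% with DESeq2. No filter called 2.93% and 4.19%, and a mean of at least 1 CPM 5.89% down. Leaving out 1 library gave 1 to 6 and 1 to 7, and without both adrenal libraries 0 and 1 were called. With the replicate number as a block, the lung comparison had 0 called, with all 12 genes lower and adjusted p-values of 0.0637 to 0.0938 (edgeR). Of all 19617 genes in lung only 1 was then called up and 3 down. Kidney calls were kept with the block (24, 11 and 17). Kidney minus lung had 2 and 3, where 2.18% and 2.5% of all genes were called. Whether the numbers pair the samples is not stated, and correlations of deviations with 3 libraries per group cannot decide it. Of 12 pairs with the same number 2 were correlated over 0.1 (range -0.055 to 0.182), against 1 of 24 with different numbers (range -0.190 to 0.107). The 2 were IgGK with LepK replicate 1 (0.182) and IgGK with LepK replicate 2 (0.165). Signs that changed were of genes not called. Library totals gave Fras1 0.0748 (IgGK against WTK), Lamb2 -0.14, Col4a3 -0.042, Col4a5 -0.13 and Frem2 -0.16 (LepK against IgGK), Lamb1 0.26 and Lamc3 0.16 (LepK against WTK), and Lamb2 -0.17, Nid1 -0.062 and Lama2 -0.084 (kidney minus lung). Lamb1 in LepK against WTK was 0.0057 with a mean of at least 1 CPM and 0.0075 in the fit of 2 groups. Col15a1 for kidney minus lung was 0.0034 with RLE scaling and 0.0029 with DESeq2. Without both adrenal libraries Smoc1 was 0.28 and Frem2 -0.12 (LepK against IgGK), and Hspg2 0.058, Col15a1 0.10 and Lama4 0.10 (kidney minus lung). Leaving out 1 library changed the sign of Agrn (-0.15 to 0.096), Lamb2 (-0.11 to 0.097), Lamb3 (-0.17 to 0.028) and Npnt (-0.015 to 0.37) in lung, of Col15a1 (-0.22 to 0.15), Col4a3 (-0.25 to 0.11), Col4a4 (-0.35 to 0.089), Hspg2 (-0.16 to 0.060), Lama4 (-0.12 to 0.045) and Lamb2 (-0.024 to 0.15) for kidney minus lung, and of Col4a5 (-0.0095 to 0.12), Fras1 (-0.16 to 0.037), Frem2 (-0.091 to 0.13), Lama1 (-0.14 to 0.050) and Lamb2 (-0.047 to 0.12) in LepK against IgGK. It also changed that of Frem2 in IgGK against WTK (-0.061 to 0.13) and, in LepK against WTK, of Frem2 (-0.077 to 0.14), Lama2 (-0.055 to 0.14), Lama4 (-0.032 to 0.30) and Lamb1 (-0.072 to 0.044). The causes were not tested. Depth limits Frem2 in lung most, with 8 to 41 reads per IgGL library, and Hmcn1 in WTK had 56 to 86.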
